A study of Rattus norvegicus with 12 samples.

Results

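The livers of rats dosed with myclobutanil were set against the livers of rats dosed with triadimefon, across all probe sets of the array. Both compounds are triazole fungicides. The comparison took in every array of the 2 groups, which is 6 of the 12 arrays in the series, and all 31042 probe sets other than the manufacturer's controls. Of these, 21729 were bright enough to be tested, and they covered 11842 genes.

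The myclobutanil group held 3 male Sprague-Dawley rats given 300 mg/kg/day, and the triadimefon group held 3 given 175 mg/kg/day. The controls were 3 rats of the same strain, sex and age, whose vehicle and dose the labels do not state. They serve here to show which of the dosed groups stood apart. All rats were 10 weeks old, dosing was by gavage every 24 h over 72 h, and each array held the liver RNA of 1 animal with no pooling. A remaining group, given propiconazole, is not described. Its arrays and the control arrays also entered the joint normalization, the choice of probe sets bright enough to test, and the estimate of the spread. The doses of the 2 compounds differ, so an effect of the compound and an effect of the dose cannot be told apart, and the time of day at which livers were taken is not given in the labels.

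Triazole fungicides block the sterol demethylase of fungi, a form of the mammalian enzyme Cyp51. Myclobutanil carries a nitrile and a butyl chain on its triazole core, whereas triadimefon carries a ketone and a phenoxy ether. In rodent liver such compounds are known as inducers of drug-metabolizing enzymes through the nuclear receptors CAR and PXR. The liver also runs a circadian clock, in which Bmal1 pairs with Clock or its relative Npas2 to drive the Per, Cry and Nr1d genes and the transcription factor Dbp through E-box sequences. The products of Nr1d1 and Nr1d2 in turn repress Bmal1 and Npas2 through ROR elements, so that Bmal1 and Dbp normally run in opposite phases.

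Values are a deposited log-like score per probe set, whose log base and centring are unknown, so differences are given in log-like units and no fold change is given. As a yardstick, the bacterial spike-in cre lay a median of 2.73 units above the spike-in bioB, with a range of 2.42 to 3.39 over the 12 arrays. A difference was called when its adjusted p was under 0.05 in limma, a linear model fitted to every tested probe set over all 12 arrays. The median width of the 95% interval was 0.141 units to either side of a difference. The array of myclobutanil replicate 1 stood apart. The deposited values there had a median of 0.157, where the remaining 11 arrays had 0.0182 to 0.0552, and its correlations with the rest had a median of 0.927, where those of the remaining arrays ran from 0.962 to 0.982. Where a call between the compounds, or a count of list members, described here changed by over 1.5 times without that array, both values are given. An RNA quality measure overlapped between the groups. The difference between the GAPDH probe sets at the 3′ and 5′ ends averaged 0.624 ± 0.128 with myclobutanil, 0.587 ± 0.212 with triadimefon and 0.659 ± 0.252 in controls (SD, n = 3 each). Hepatocyte markers were bright in all groups, with a mean over 17 tested marker genes of 2.62, 2.89 and 2.75 with myclobutanil, 2.89, 2.95 and 2.94 with triadimefon and 3.02, 2.89 and 2.87 in controls.

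Few genes separated the 2 compounds. Of 21729 probe sets, 6 were called (0.0276%), of which 2 were higher (0.0092%) and 4 lower (0.0184%) with myclobutanil than with triadimefon. The higher ones were Rprm, a p53-induced inhibitor of cell cycle progression, and Saa3, an acute-phase serum amyloid. The lower ones were the clock genes Dbp, Per3 and Nr1d2, and Fcna, which encodes a ficolin, a lectin of the complement system. Counted by gene, with each gene represented by its brightest probe set, 5 of 11842 were called (0.0422%), 2 higher (0.0169%) and 3 lower (0.0253%), since the Nr1d2 probe set called was not its brightest. At an unadjusted limma p under 0.05 the count was 1653 probe sets (7.61%), and 2362 probe sets (10.9%) had 3 myclobutanil arrays that did not overlap the 3 triadimefon arrays. Against the same 3 control arrays, 395 probe sets were called with myclobutanil (1.82%) and 167 with triadimefon (0.769%).

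The count of 6 depended on which arrays were used. Without myclobutanil replicate 1 the call count was 33 (0.152%), with 18 higher (0.0828%) and 15 lower (0.069%), and these held 6 of the 6 probe sets called with all arrays. Without myclobutanil replicate 2 it was 18, and without any other single array it was between 0 and 3. Rprm was called in 7 of the 9 fits that leave out an array, Saa3 in 3, Nr1d2 in 2, and Dbp, Per3 and Fcna in 1 each. Leaving out triadimefon replicate 1 or triadimefon replicate 2 left no call, and there the adjusted p in limma of Rprm was 0.0562 and 0.182.

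**Figure D1:**
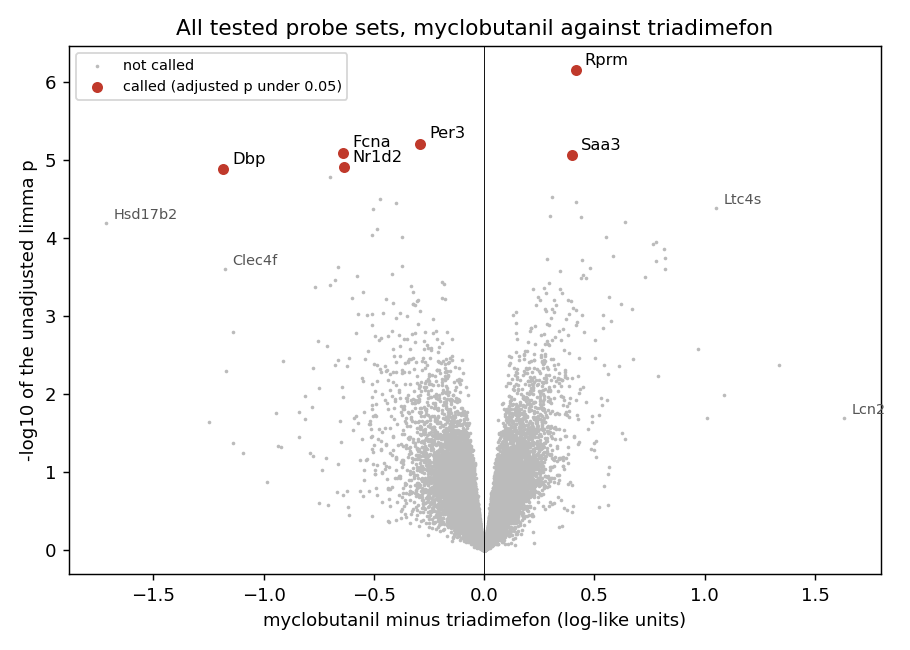
Each point is 1 of 21729 probe sets. The horizontal axis is the difference, myclobutanil minus triadimefon, in log-like units, and the vertical axis is the -log10 of the unadjusted limma p. The 6 called probe sets (red) carry their gene names, and 4 uncalled genes named in the text are marked in grey. Hsd17b2 (-1.71) and Lcn2 (1.63) had larger differences than any called gene.

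The clock genes gave 3 of the 6 calls. Before the values, the promoters of 4 clock genes are shown, as RefSeq gives them on the GRCr8 assembly: the 250 bases before the start of each gene, 5′ to 3′ on the gene's strand, with any motif found in capitals. Bmal1 (chr1:176766078-176766327, plus strand) is shown for its ROR element, Nr1d1 (chr10:84229455-84229704, minus strand, the second of its 2 listed starts) for its E-box, Per2 (chr9:99496994-99497243, minus strand) for its D-box, the sequence to which Dbp binds, and Dbp (chr1:105312006-105312255, plus strand) as the promoter of the clock gene with the largest called difference, in which none of the 3 motifs was found.
Bmal1: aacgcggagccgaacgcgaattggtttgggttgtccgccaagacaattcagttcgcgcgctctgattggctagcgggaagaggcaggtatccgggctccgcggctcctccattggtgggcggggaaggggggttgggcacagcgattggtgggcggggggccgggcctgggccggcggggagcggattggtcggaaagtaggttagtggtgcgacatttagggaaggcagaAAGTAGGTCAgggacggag
Nr1d1: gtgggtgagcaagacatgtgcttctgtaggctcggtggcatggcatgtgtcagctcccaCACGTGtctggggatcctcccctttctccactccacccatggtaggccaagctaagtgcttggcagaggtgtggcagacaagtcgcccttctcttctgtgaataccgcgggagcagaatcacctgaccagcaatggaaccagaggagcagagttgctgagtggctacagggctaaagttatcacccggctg
Per2: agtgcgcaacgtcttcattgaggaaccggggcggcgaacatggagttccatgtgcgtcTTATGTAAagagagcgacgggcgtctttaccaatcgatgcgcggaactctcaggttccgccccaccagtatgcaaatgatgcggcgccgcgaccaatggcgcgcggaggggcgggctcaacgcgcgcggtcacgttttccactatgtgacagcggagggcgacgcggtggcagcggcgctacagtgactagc
Dbp: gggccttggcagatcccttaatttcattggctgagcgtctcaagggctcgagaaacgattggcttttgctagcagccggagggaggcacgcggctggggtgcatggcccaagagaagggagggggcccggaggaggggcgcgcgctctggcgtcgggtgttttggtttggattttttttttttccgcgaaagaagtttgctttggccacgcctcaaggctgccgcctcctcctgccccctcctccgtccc

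The letters searched on both strands were CACGTG for the E-box, TTANGTAA or TTACNTAA for the D-box, and, for the ROR element, an A, any 2 bases and then TAGGTCA. Of 25 genes in the clock list, 20 had a promoter in the table. They are not the same 20 that were tested for expression. Bhlhe41, Ciart and Fbxl21 had a promoter and were not tested, and Cry1, Hlf and Csnk1d were tested without one. An E-box stood in a promoter of 5 genes (Nr1d1, Tef, Bhlhe40, Bhlhe41 and Ciart), a D-box in 1 and a ROR element in 1, and no 2 matches overlapped. Counted by promoter and not by gene, 5.59% of all 33469 in the table held the E-box, 2.04% the D-box and 0.586% the ROR element in the same window. The ROR element of Bmal1 began 19 bases before the start, the D-box of Per2 192 bases before it and the E-box of Nr1d1 191 bases before it. A match of letters describes these windows only.

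Dbp, a transcription factor that carries clock output to liver enzymes, had the largest called difference. It measured 0.18, 0.02 and 0.06 in the 3 myclobutanil livers, against 1.41, 1.43 and 0.96 in the triadimefon livers, and -0.02, 0.07 and 0.14 in controls. The dosed groups did not overlap, and all 3 myclobutanil livers lay close to the controls. The difference was -1.18 ± 0.161 (SE; 95% interval, -1.54 to -0.83; limma adjusted p 0.0471). Against control, Dbp rose by 1.21 with triadimefon (limma adjusted p 0.0107), and with myclobutanil the difference was 0.02 (limma adjusted p 0.947). The myclobutanil and control levels of Dbp lay around the array medians (0.0182 to 0.157 in the deposited values), so dim that their likeness cannot be judged.

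Per3, a period gene of the clock's negative limb, measured 0.05, 0.02 and 0.00 with myclobutanil, against 0.36, 0.32 and 0.27 with triadimefon and 0.00, 0.02 and 0.03 in controls. Again the myclobutanil and control livers stood together and the triadimefon livers apart from both. The myclobutanil and control levels lay around or below the array medians (0.0182 to 0.157 in the deposited values). At so dim a level their closeness cannot be read as an equal level of the gene. Between the compounds the difference was -0.29 ± 0.037 (SE; limma adjusted p 0.0471). A dimmer probe set of Per3 gave -0.12 (limma adjusted p 0.492).

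Nr1d2, a heme-binding repressor of Bmal1, was called with 1 of its 2 probe sets. That probe set measured 0.31, 0.54 and 0.22 with myclobutanil, against 0.91, 1.06 and 1.0 with triadimefon and 0.41, 0.48 and 0.58 in controls, a difference of -0.64 ± 0.087 between the compounds (SE; limma adjusted p 0.0471). The 2 dosed groups did not overlap there, and the triadimefon level was called higher than control (0.50, limma adjusted p 0.0227). The brighter probe set measured 1.41, 0.80 and 0.45 with myclobutanil, against 1.38, 1.37 and 1.24 with triadimefon, and its groups overlapped through myclobutanil replicate 1 (difference -0.44, limma adjusted p 0.649).

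The activating limb lay on the other side of 0. Bmal1 measured 0.31, 0.53 and 0.62 with myclobutanil, against -0.14, -0.08 and 0.00 with triadimefon and 0.68, 0.53 and 0.61 in controls. The difference between the compounds of 0.55 was not called (limma adjusted p 0.101), while Bmal1 fell by 0.68 with triadimefon against control (limma adjusted p 0.0122). Npas2, the partner that can stand in for Clock, measured 0.03, 0.43 and 0.30 with myclobutanil, against -0.27, -0.18 and -0.19 with triadimefon and 0.67, 0.64 and 0.70 in controls. Npas2 was thus below control in both dosed groups without overlap, and the difference between them of 0.46 was not called (limma adjusted p 0.173). The triadimefon levels of Bmal1 and Npas2 lay below every array median, so dim that the size of these differences is uncertain. Clock itself differed by 0.32 (limma adjusted p 0.418), with all 3 myclobutanil livers above the triadimefon livers.

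The other output and feedback genes differed without a call, most of them below 0. Above 0 were Cry1, a repressor of the negative limb, at 0.26, Rora at 0.16 and Nfil3, which competes with Dbp for D-boxes, at 0.11. Usp2, a rhythmic deubiquitinase, measured 0.43, 0.40 and 0.30 with myclobutanil and 0.88, 0.72 and 0.74 with triadimefon (difference -0.40, limma adjusted p 0.0691), and its second probe set gave -0.70 (limma adjusted p 0.0508). Nr1d1 differed by -0.66 (limma adjusted p 0.383), Per2 by -0.64 (0.49), Hlf, a relative of Dbp, by -0.26 (0.53) and Cry2 by -0.19 (0.459). The groups did not overlap for Nr1d1, Hlf, Cry2 and Rora. For Per2 they did, since the third myclobutanil liver at 1.22 reached the triadimefon livers while the others were at 0.34 and 0.35.

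Over the list of clock genes, 20 of 25 were tested, and 0 were called higher and 2 lower, against 0.0169% and 0.0253% of all genes. At an unadjusted limma p under 0.05, 3 were higher and 9 lower, against 4.62% and 3.84% of all genes. The groups did not overlap in 4 higher and 8 lower genes, against 6.12% and 5.69% of all genes. The median difference was -0.16, against -0.003 over all tested genes. Without myclobutanil replicate 1, the calls were 5 (0.211% of all genes): Dbp, Per3 and Usp2 lower, and Bmal1 and Npas2 higher with myclobutanil, and the Nr1d2 probe set described above was called as well. Against control, 1 clock gene was called with myclobutanil (0 higher, 1 lower) and 4 with triadimefon (2 higher, 2 lower), where 2.25% and 0.836% of all genes were called. The time of sampling was not tested, since the labels give none.

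**Figure D2:**
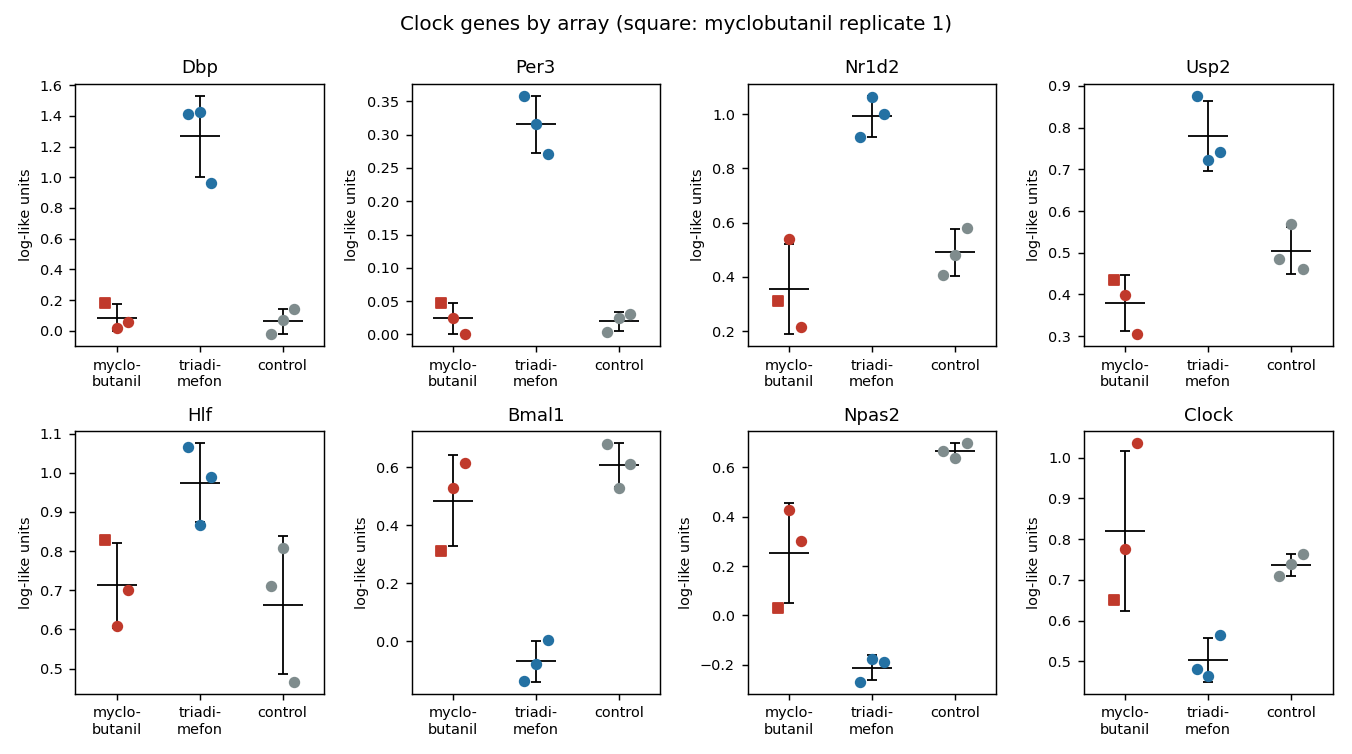
Level of 8 clock genes on each array (log-like units, vertical axis) for myclobutanil, triadimefon and control livers, with group mean and SD as black bars. Squares mark myclobutanil replicate 1, and Nr1d2 is the called probe set. Dbp, Per3, Nr1d2 and Usp2 are high in the triadimefon livers alone, and Bmal1, Npas2 and Clock are lowest there.

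Rprm had the smallest p of the comparison. It measured 0.13, 0.16 and 0.12 with myclobutanil, against -0.35, -0.31 and -0.17 with triadimefon and 0.28, 0.25 and 0.19 in controls. Every triadimefon liver lay below every other liver of these groups. Rprm was dim, with levels on both sides of the array medians (0.0182 to 0.157 in the deposited values). With the dimmest 50% of probe sets left out, 0 were called higher, so neither Rprm nor Saa3 was called. That filter works by level and may have left both genes untested, so it cannot weigh their differences. The difference between the compounds was 0.41 ± 0.042 (SE; 95% interval, 0.32 to 0.51; limma adjusted p 0.0152). Against control Rprm fell by 0.52 with triadimefon (limma adjusted p 0.00157), and the difference with myclobutanil was -0.10 (limma adjusted p 0.2). Of the 18 tested p53 targets Rprm was the only called one (0.0422% of all genes were called), and the median of that list was -0.01.

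Saa3 was instead set apart by the myclobutanil livers, which measured 0.27, 0.14 and 0.39, against -0.14, -0.14 and -0.12 with triadimefon and -0.09, -0.13 and -0.08 in controls. The triadimefon and control livers all lay below 0 and the myclobutanil livers above it. These levels were dim as well, and Saa3 was not called with the dimmest 50% of probe sets left out, where it may not have been tested. The mean that admitted Saa3 to testing included the myclobutanil arrays, where it is high. Whether it would be admitted without them was not tested. Between the compounds the difference was 0.40 ± 0.052 (SE; limma adjusted p 0.0471), and against control Saa3 rose by 0.37 with myclobutanil (limma adjusted p 0.0115).

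Other acute-phase genes gave wide spreads. Lcn2, a siderophore-binding protein, measured 0.43, 2.58 and 3.37 with myclobutanil, against 0.00, -0.01 and 1.49 with triadimefon and -0.03, -0.02 and 0.03 in controls. The groups overlapped because 1 triadimefon liver was high and myclobutanil replicate 1 was low. The difference of 1.63 was not called (limma adjusted p 0.559), and without myclobutanil replicate 1 it was 2.46 and was called (limma adjusted p 0.0461). Wfdc21, a secreted antiprotease-like protein, measured 2.52, 2.83 and 3.54 with myclobutanil and 1.63, 1.93 and 2.41 with triadimefon (difference 0.97, limma adjusted p 0.356), and it was called higher than control with myclobutanil (1.68, limma adjusted p 0.0118). None of the 28 tested genes of the acute-phase list, which does not hold Saa3, was called between the compounds. At an unadjusted limma p under 0.05, 4 were higher and 1 lower, against 4.62% and 3.84% of all genes. The counts without myclobutanil replicate 1 were 10 higher and 2 lower, against 5.11% and 3.28% of all genes. Without that array 1 member, Lcn2, was called (0.211% of all genes).

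Fcna, known in mouse as a product of liver and spleen macrophages, was lower with myclobutanil. It measured 0.30, 0.03 and -0.02, against 0.62, 0.81 and 0.79 with triadimefon and 1.03, 0.94 and 1.0 in controls. The 3 groups did not overlap. The difference between the compounds was -0.64 ± 0.083 (SE; 95% interval, -0.82 to -0.46; limma adjusted p 0.0471), and without myclobutanil replicate 1 it was -0.75 (limma adjusted p 0.0025). Against control Fcna fell by 0.89 with myclobutanil (limma adjusted p 0.00212), and the difference with triadimefon was -0.25 (limma adjusted p 0.221).

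Markers of Kupffer cells, the resident macrophages of the liver, also had mostly negative differences, and 0 of 14 tested were called with all arrays. Clec4f, a lectin specific to rodent Kupffer cells, measured 1.58, 0.63 and 0.48 with myclobutanil, against 2.02, 2.12 and 2.08 with triadimefon and 2.11, 2.41 and 2.23 in controls. Myclobutanil replicate 1 lay between the other myclobutanil livers and the rest. The difference of -1.18 was not called (limma adjusted p 0.161), and without that array it was -1.51 and was called (limma adjusted p 0.000513).

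Cd5l, a secreted scavenger protein of macrophages, gave the same order, with 1.41, 0.21 and 0.14 with myclobutanil and 1.88, 1.62 and 1.67 with triadimefon, a difference of -1.14 (limma adjusted p 0.294). The complement subunits C1qa and C1qc differed by -0.77 and -0.58, and Cd163, the receptor for haptoglobin-bound hemoglobin, by -0.67, without a call. All 4 were called without myclobutanil replicate 1, with differences of -1.56 for Cd5l, -0.97 for C1qa, -0.78 for C1qc and -0.81 for Cd163. Adgre1, an adhesion receptor used to identify macrophages, measured -0.25, -0.26 and -0.26 with myclobutanil, against 0.19, -0.01 and 0.16 with triadimefon (difference -0.37, limma adjusted p 0.101). The myclobutanil levels lay below every array median (0.0182 to 0.157 in the deposited values). At so dim a level their narrow spread cannot be read as likeness between animals. Cd68 and Mrc1 differed by -0.25 and -0.15, with groups that overlapped. Lyz2 and Cd14 differed by 0.18 and 0.08, above 0.

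Over the list, 10 of 14 genes were lower at an unadjusted limma p under 0.05 and 0 higher, and 7 were lower without overlap, against 3.84% and 5.69% of all genes. The median difference was -0.34, and -0.44 without myclobutanil replicate 1. Without that array 5 list members were called (0.211% of all genes), and 12 were lower at an unadjusted limma p under 0.05 (3.28% of all genes). The mean level of the list was 1.10, 0.68 and 0.67 in the myclobutanil livers, against 1.22, 1.19 and 1.35 in the triadimefon livers and 1.22, 1.38 and 1.34 in controls, so every myclobutanil liver lay below every other. Against control, 6 list members were called lower with myclobutanil (0.98% of all genes) and 0 with triadimefon (0.279%). In RNA of whole liver, fewer cells of a type and less RNA per cell cannot be told apart.

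The other marker lists held 0 calls. Their median differences were -0.11 for 17 hepatocyte genes, -0.11 for 14 stellate cell genes, 0.006 for 7 cholangiocyte genes, -0.06 for 14 endothelial genes, -0.02 for 16 leukocyte genes, -0.11 for 6 blood genes and -0.001 for 10 pancreas genes. Among hepatocyte genes, 7 of 17 were lower at an unadjusted limma p under 0.05 and 0 higher, against 3.84% and 4.62% of all genes, and without myclobutanil replicate 1 4 were lower and 1 higher. One of them was Cyp2e1, the ethanol-oxidizing P450, at 2.57, 3.05 and 2.71 with myclobutanil, against 3.25, 3.19 and 3.19 with triadimefon and 3.35, 3.40 and 3.34 in controls (difference -0.43, limma adjusted p 0.304).

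**Figure D3:**
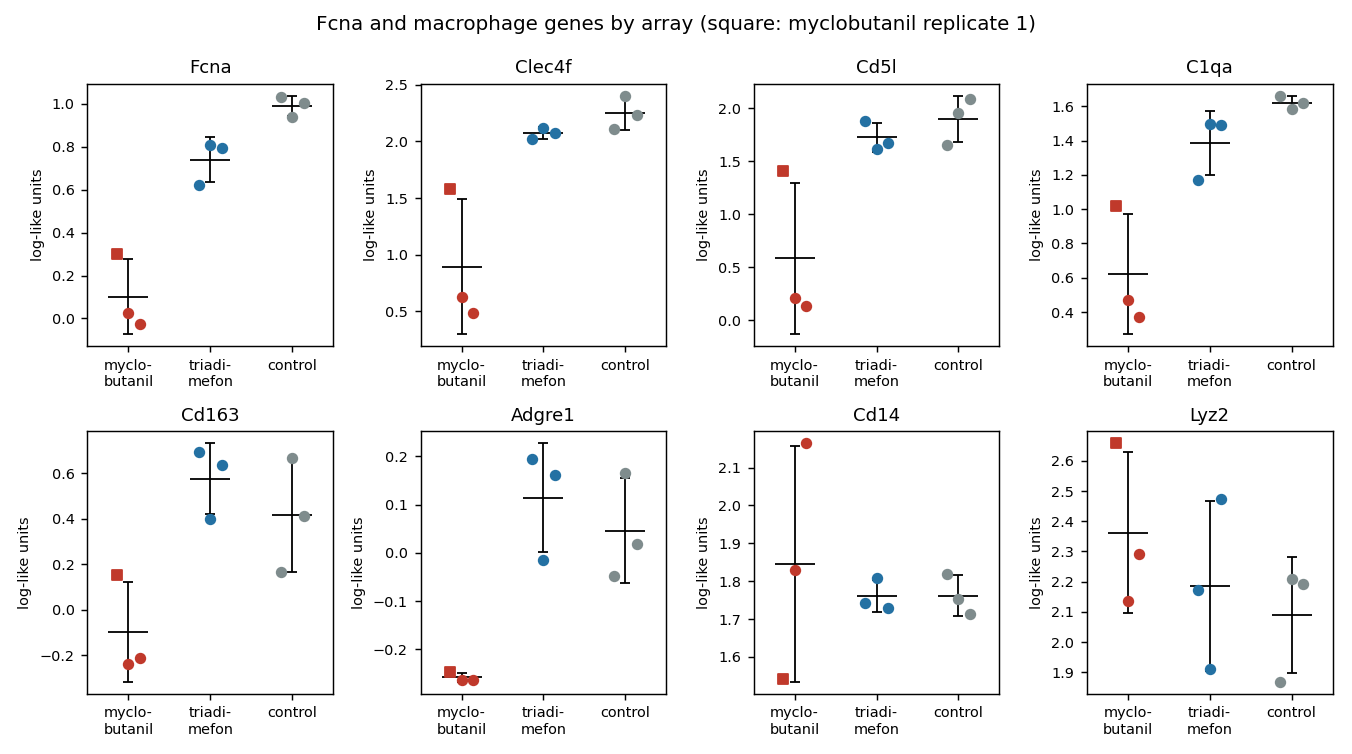
Level of Fcna and 7 macrophage genes on each array (log-like units, vertical axis) for myclobutanil, triadimefon and control livers, with group mean and SD as black bars. Squares mark myclobutanil replicate 1. For Fcna, Clec4f, Cd5l, C1qa, Cd163 and Adgre1 all 3 myclobutanil livers lie below the triadimefon livers, and for Cd14 and Lyz2 the groups overlap.

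Beside the called genes, the uncalled ones with the smallest p are given as values. On the higher side was Ltc4s, an enzyme of cysteinyl leukotriene synthesis, at 1.0, 1.30 and 1.77, against 0.33, 0.30 and 0.28 with triadimefon and 0.44, 0.50 and 0.33 in controls. Its difference of 1.05 (95% interval, 0.70 to 1.41) came to a limma adjusted p of 0.0717, and to 0.0163 without myclobutanil replicate 1. Against control it was called with myclobutanil (0.93, limma adjusted p 0.0224) and not with triadimefon (-0.12, limma adjusted p 0.81).

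Zdhhc2, a protein palmitoyltransferase, was the only one of the 15 higher genes called against control in both dosed groups, with 0.43, 0.55 and 0.41 with myclobutanil, 0.16, 0.13 and 0.18 with triadimefon and -0.13, -0.15 and -0.11 in controls. The triadimefon livers lay between the myclobutanil livers and the controls. Its difference of 0.31 was not called with all arrays (limma adjusted p 0.0691) and was called without myclobutanil replicate 1 (0.33, limma adjusted p 0.0413). The chemokine gene Cxcl9, induced by interferon gamma, differed by 0.82 (limma adjusted p 0.126; 0.64 with a second probe set) and was called against control with myclobutanil alone (1.13, limma adjusted p 0.00884). Of 26 tested interferon-induced genes, Cxcl9 was the 1 higher at an unadjusted limma p under 0.05, against 4.62% of all genes. On the lower side were 4, against 3.84%: Stat2 (-0.36), Gbp2 (-0.21), Cxcl10 (-0.14) and Ifit3 (-0.12). Gbp2, Cxcl10 and Ifit3 were dim, with myclobutanil means of -0.16, -0.05 and -0.16, below every array median. Sdf2l1, a chaperone component of the endoplasmic reticulum, measured 2.61, 2.07 and 2.30 with myclobutanil and 1.5, 1.68 and 1.5 with triadimefon (difference 0.77, limma adjusted p 0.113).

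For others the triadimefon livers were the ones below control. Insig2, which holds the sterol-sensing machinery in the endoplasmic reticulum, measured 2.22, 1.99 and 2.5 with myclobutanil, against 1.51, 1.44 and 1.43 with triadimefon and 2.49, 2.63 and 2.64 in controls. Between the compounds the difference was 0.78 (limma adjusted p 0.111), and a second probe set gave 0.82. Insig2 fell by 1.13 with triadimefon against control (limma adjusted p 0.00889). Rab38, a small GTPase of vesicle transport, measured 1.37, 1.14 and 1.14 with myclobutanil, against 0.82, 0.78 and 0.74 with triadimefon and 1.16, 1.10 and 1.18 in controls (difference 0.44, limma adjusted p 0.0781). The difference was called without myclobutanil replicate 1 (0.36, limma adjusted p 0.0461). Dipk2a differed by 0.44 with its brightest probe set, and its other 2 probe sets gave -0.01 and -0.008.

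Among the lower ones, Hsd17b2, which oxidizes estradiol and testosterone to their less active keto forms, had the largest difference of all genes, -1.71 (95% interval, -2.32 to -1.10; limma adjusted p 0.0812). It measured 1.49, 1.66 and 0.40 with myclobutanil, against 2.92, 3.12 and 2.66 with triadimefon and 1.60, 1.78 and 1.74 in controls. The triadimefon livers were above all others, and neither dosed group was called against control. Lpin2, a phosphatidate phosphatase, was likewise highest in the triadimefon livers. It measured 1.26, 0.91 and 0.97 with myclobutanil, 1.73, 1.85 and 1.55 with triadimefon and 0.84, 0.88 and 0.86 in controls. Its difference of -0.66 was not called (limma adjusted p 0.161), and without myclobutanil replicate 1 it was -0.77 and was called (limma adjusted p 0.0476). Against control Lpin2 rose by 0.85 with triadimefon (limma adjusted p 0.0122). A dimmer probe set of Lpin2 gave -0.05 between the compounds (limma adjusted p 0.787), with groups that overlapped.

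Cfd, complement factor D, and Pltp, the phospholipid transfer protein, were set apart by the myclobutanil livers. Cfd measured -0.20, -0.27 and -0.21 with myclobutanil, against 0.11, 0.32 and 0.31 with triadimefon and 0.46, 0.28 and 0.27 in controls (difference -0.47, limma adjusted p 0.0691). Its myclobutanil levels were dim and lay below every array median. Pltp measured 0.19, 0.21 and 0.32 with myclobutanil, against 0.70, 0.61 and 0.87 with triadimefon and 0.75, 0.65 and 0.92 in controls (difference -0.49, limma adjusted p 0.0919). Both fell against control with myclobutanil, by 0.56 for Cfd (limma adjusted p 0.00872) and by 0.53 for Pltp (limma adjusted p 0.0122). The interleukin-6 receptor Il6r differed by -0.70 (limma adjusted p 0.189).

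Of the 15 higher genes named by this rule, 2 were called between the compounds. Against control, 3 were called with myclobutanil only, 5 with triadimefon only, 1 with both and 6 with neither. Of the 15 lower genes, 3 were called between the compounds. Against control 6 of them were called with myclobutanil only, 4 with triadimefon only, 0 with both and 5 with neither. Over all genes, 2.25% were called with myclobutanil and 0.836% with triadimefon against control. The named genes were picked by a difference between the same dosed arrays, so their calls against control are not independent of that choice. Those not described above were Lgalsl, Chchd6, Tubb2a, Mal2 and Pgpep1 among the higher and Cobll1 and Hapstr1 among the lower, with limma adjusted p between 0.147 and 0.2. Probe sets without a single assigned gene were led by 1383518_at (0.42) and 1395503_at (0.30) on the higher side and 1381811_at (-0.50) and 1371922_at (-0.37) on the lower side, none of them called. Without myclobutanil replicate 1, 1383518_at (0.44, limma adjusted p 0.0461) and 1381811_at (-0.56, limma adjusted p 0.0436) were called.

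Genes of drug metabolism were called against control in both dosed groups, and none was called between the compounds. Of 31 tested CAR and PXR targets, 7 were called with myclobutanil and 6 with triadimefon against control, all higher, with 1.28% and 0.557% of all genes called higher. Between the compounds 2 were higher and 1 lower at an unadjusted limma p under 0.05, against 4.62% and 3.84% of all genes, and the median difference was -0.03.

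Cyp3a23-3a1, the PXR-induced P450 of rat liver, measured 3.45, 3.46 and 3.41 with myclobutanil, against 3.48, 3.43 and 3.42 with triadimefon and 2.93, 3.10 and 3.07 in controls. The 2 dosed groups overlapped fully and both rose by 0.41 against control (limma adjusted p 0.0115 with myclobutanil and 0.0122 with triadimefon). The difference between the compounds was -0.004 (95% interval, -0.13 to 0.13; limma adjusted p 0.984). Rat Cyp3a genes are close copies of each other, and how far this probe set separates them was not tested.

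Aldh1a1, an aldehyde and retinal dehydrogenase, rose by 1.0 with myclobutanil and by 0.93 with triadimefon against control, with a difference of 0.07 between the compounds (95% interval, -0.25 to 0.38). The carboxylesterase Ces2c rose by 1.17 with myclobutanil and by 1.19 with triadimefon (difference -0.02; 95% interval, -0.40 to 0.37). The glutathione transferase Gsta3 rose by 1.73 with myclobutanil and by 1.38 with triadimefon (difference 0.36; 95% interval, -0.03 to 0.75). The intervals hold 0 for all 3 genes. They also hold differences of up to 0.75 units, so they do not show that the compounds act alike. The glucuronosyltransferase Ugt2b1 rose by 1.12 with myclobutanil and by 0.91 with triadimefon (difference 0.21; 95% interval, -0.13 to 0.55). Cyp26a1, which clears retinoic acid, differed by -0.05 (95% interval, -0.32 to 0.21), and Hmox1, the inducible heme oxygenase, by 0.06 (95% interval, -0.57 to 0.70).

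Por, the reductase that supplies electrons to all microsomal P450 enzymes, was the member of the list with the smallest p. It measured 1.44, 1.45 and 1.44 with myclobutanil, against 2.01, 2.24 and 1.90 with triadimefon and 1.11, 0.66 and 0.65 in controls. The 3 groups did not overlap, and the triadimefon livers were the highest. Por rose against control by 0.64 with myclobutanil (limma adjusted p 0.0362) and by 1.24 with triadimefon (limma adjusted p 0.00476). The difference between the compounds of -0.60 was not called (95% interval, -0.88 to -0.32; limma adjusted p 0.209). A dimmer probe set of Por gave -0.66 (limma adjusted p 0.57), with dosed groups that overlapped. Its myclobutanil mean of 0.41 lay near its control mean of 0.35, and its triadimefon mean was 1.06.

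Other fixed genes had intervals that did not hold 0, again without a call. Nqo1, a quinone reductase under NRF2 and AhR control, measured 2.31, 2.20 and 2.24 with myclobutanil, against 1.81, 2.00 and 1.61 with triadimefon and 1.47, 1.60 and 1.59 in controls (difference 0.44; 95% interval, 0.22 to 0.66; limma adjusted p 0.231). All myclobutanil livers lay above the triadimefon livers, and Nqo1 was called against control with myclobutanil alone (0.70, limma adjusted p 0.0115). Stac3 measured 0.67, 0.04 and -0.13 with myclobutanil, against 1.64, 0.79 and 0.88 with triadimefon and 2.68, 2.5 and 2.57 in controls. It fell against control by 2.39 with myclobutanil (limma adjusted p 0.00358) and by 1.48 with triadimefon (limma adjusted p 0.022), and the difference between the compounds was -0.91 (95% interval, -1.46 to -0.36).

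Cyp7a1, which sets the pace of bile acid synthesis, varied widely, with 1.88, 1.80 and 0.22 with myclobutanil, 3.16, 1.81 and 2.66 with triadimefon and 1.41, 1.90 and 1.46 in controls. The dosed groups overlapped, and the difference was -1.25 (95% interval, -2.28 to -0.21; limma adjusted p 0.573). The male-specific Cyp2c11 measured 3.64, 3.33 and 2.39 with myclobutanil and 3.57, 3.39 and 3.47 with triadimefon (difference -0.36; 95% interval, -0.87 to 0.15), with the third myclobutanil liver alone below the rest. Cyp1a1 differed by 0.36, Cyp1a2 by -0.17, Cyp4a1 by 0.27, the transporters Abcc3 by 0.24 and Abcb1a by 0.15, none of them called. Of 52 tested P450 genes, 4 were higher and 5 lower at an unadjusted limma p under 0.05, against 4.62% and 3.84% of all genes, with a median of -0.05. The counts without myclobutanil replicate 1 were 3 higher and 10 lower, against 5.11% and 3.28% of all genes.

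**Figure D4:**
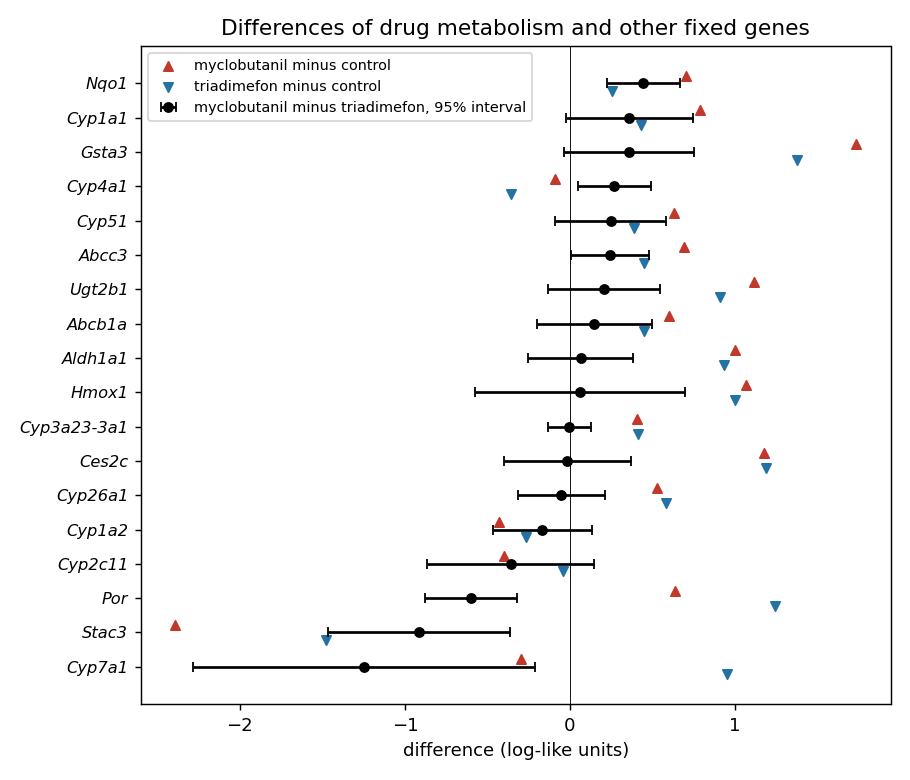
Differences of 18 fixed genes in log-like units (horizontal axis). Black points with bars are myclobutanil minus triadimefon with the 95% interval, and triangles are myclobutanil minus control (red) and triadimefon minus control (blue). For Cyp3a23-3a1, Ces2c and Aldh1a1 the triangles stand close together above 0, and for Por the triadimefon triangle (1.24) lies beyond the myclobutanil one (0.64).

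Cell cycle genes were the list with the most separate groups on the higher side. Of 35 tested, 0 were called between the compounds, 20 were higher and 1 lower at an unadjusted limma p under 0.05, against 4.62% and 3.84% of all genes, and 18 were higher without overlap, against 6.12% of all genes. Against control, 8 were called higher with myclobutanil (1.28% of all genes) and 0 with triadimefon (0.557%). Cdk1, the mitotic kinase, measured 0.95, 0.39 and 0.55 with myclobutanil, against 0.01, 0.08 and 0.28 with triadimefon and -0.12, -0.11 and 0.03 in controls (difference 0.50, limma adjusted p 0.383). Ccnb1, its cyclin partner, measured 0.42, 0.23 and 0.32 with myclobutanil, against 0.02, 0.06 and 0.12 with triadimefon and 0.05, 0.01 and -0.01 in controls (difference 0.26, limma adjusted p 0.209; 0.29 with a second probe set). For both genes all myclobutanil livers lay above the triadimefon livers, and for Cdk1 replicate 1 was the highest. The proliferation antigen Mki67 differed by 0.18, the topoisomerase Top2a by 0.25 and Cdca3, a mitotic entry factor, by 0.36. The median of the list was 0.15, and 0.09 without myclobutanil replicate 1, where 13 members were higher at an unadjusted limma p under 0.05, against 5.11% of all genes.

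Genes of glucose and glycogen metabolism lay on the lower side. Of 31 tested, 0 were called, 10 were lower and 0 higher at an unadjusted limma p under 0.05, against 3.84% and 4.62% of all genes, and 8 were lower without overlap, against 5.69%. The counts without myclobutanil replicate 1 were 13 lower and 0 higher. The median was -0.17. Slc37a4, the glucose-6-phosphate transporter of the endoplasmic reticulum, measured 1.45, 1.70 and 1.30 with myclobutanil, against 2.10, 2.04 and 1.96 with triadimefon and 2.13, 1.95 and 2.11 in controls (difference -0.55, limma adjusted p 0.2). It fell by 0.58 with myclobutanil against control (limma adjusted p 0.0344), and the triadimefon livers lay among the controls. Pdk2, a kinase that restrains pyruvate dehydrogenase, differed by -0.51, Ugp2, which makes UDP-glucose for glycogen, by -0.40, and the pyruvate kinase Pklr by -0.81. Of the list, 6 members were called lower with myclobutanil against control (0.98% of all genes) and 0 with triadimefon (0.279%).

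Genes of methionine, sulfur and urea cycle metabolism gave a like picture, with 13 of 34 lower and 1 higher at an unadjusted limma p under 0.05, 9 lower without overlap, 0 called and a median of -0.13. Over all genes 3.84% were lower and 4.62% higher at that p, and 5.69% lower without overlap. The counts without myclobutanil replicate 1 were 11 lower and 2 higher. Gnmt, a glycine methyltransferase that regulates the methyl donor pool, measured 1.59, 1.75 and 1.18 with myclobutanil, against 2.16, 2.44 and 2.05 with triadimefon and 3.03, 2.77 and 2.66 in controls. The 3 groups did not overlap, and the triadimefon livers lay in between. Between the compounds the difference was -0.71 (limma adjusted p 0.341), and Gnmt fell by 1.31 with myclobutanil against control (limma adjusted p 0.0113). Mat1a, which makes S-adenosylmethionine in hepatocytes, differed by -0.45 and Glul, the glutamine synthetase of pericentral hepatocytes, by -0.43, with -0.43 and -0.23 on its other 2 probe sets.

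Cyp51, the mammalian form of the enzyme that triazoles block in fungi, measured 2.72, 2.98 and 2.9 with myclobutanil, against 2.57, 2.42 and 2.86 with triadimefon and 2.03, 2.5 and 2.17 in controls. The dosed groups overlapped, and the difference was 0.25 (95% interval, -0.09 to 0.58; limma adjusted p 0.673), or 0.09 with a second probe set. Of 19 tested cholesterol synthesis genes, 3 were higher and 0 lower at an unadjusted limma p under 0.05, against 4.62% and 3.84% of all genes, and the median was 0.15. Without myclobutanil replicate 1, 6 were higher and 0 lower, against 5.11% and 3.28% of all genes, and the median was 0.26. Fdft1, squalene synthase, measured 2.04, 1.99 and 2.09 with myclobutanil and 1.34, 1.70 and 1.78 with triadimefon, without overlap (difference 0.43, limma adjusted p 0.383). A second probe set of Fdft1 gave 0.20 (limma adjusted p 0.685), with groups that overlapped.

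Heat shock and immediate early genes had the lowest median after the Kupffer cell markers, at -0.25, with 0 of 28 higher and 2 lower at an unadjusted limma p under 0.05, against 4.62% and 3.84% of all genes. The spread within groups was wide. The chaperone gene Hspa1a measured 1.99, 0.56 and 1.46 with myclobutanil, against 1.06, 3.19 and 2.72 with triadimefon and 0.32, 0.23 and 1.0 in controls. Egr1, an immediate early transcription factor, measured 1.72, 0.65 and 0.61 with myclobutanil, against 1.21, 2.65 and 2.39 with triadimefon and 0.22, 1.90 and 1.88 in controls. For both genes triadimefon replicate 1 was the lowest of its group and myclobutanil replicate 1 the highest of its own, and the groups overlapped. The median without myclobutanil replicate 1 was -0.42.

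The remaining lists held 0 called genes, with medians from -0.14 for 17 thyroid hormone genes to 0.07 for 33 ribosome biogenesis and proteasome genes. The counts that follow are at an unadjusted limma p under 0.05, where 4.62% of all genes were higher and 3.84% lower. Without myclobutanil replicate 1 these shares were 5.11% and 3.28%.

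Among thyroid hormone genes 1 was higher and 6 lower, and 0 and 5 without that array. Klf9, a thyroid hormone and glucocorticoid target, was at -0.53 with its brightest probe set (limma adjusted p 0.364) and at -0.02 and -0.09 with its other 2. The receptor Thrb was at -0.31, and at -0.16 and -0.18 with its other 2 probe sets. Among ribosome biogenesis and proteasome genes 4 were higher and 0 lower, and 3 and 0 without that array. The proteasome subunit Psmd14 was at 0.43, and at 0.23 and 0.11 with its other 2 probe sets, and Psma4 was at 0.29.

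Among 41 fatty acid oxidation and PPAR-alpha targets 6 were higher and 2 lower, and 8 and 2 without that array. The lipid droplet protein Plin2 was at 0.67, while a dimmer probe set gave 0.11 (limma adjusted p 0.716) with groups that overlapped. In the ER stress list 4 of 33 were higher and 2 lower, and 10 and 1 without that array. Herpud1, a component of ER-associated degradation, was at -0.54 while Sdf2l1 was at 0.77. Coq10b, a coenzyme Q-binding protein, measured 1.83, 1.39 and 1.01 with myclobutanil, against 2.05, 1.96 and 2.05 with triadimefon and 0.67, 0.40 and 0.57 in controls, and rose against control with both compounds. Its difference of -0.61 between them was called only without myclobutanil replicate 1 (limma adjusted p 0.0461).

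**Figure D5:**
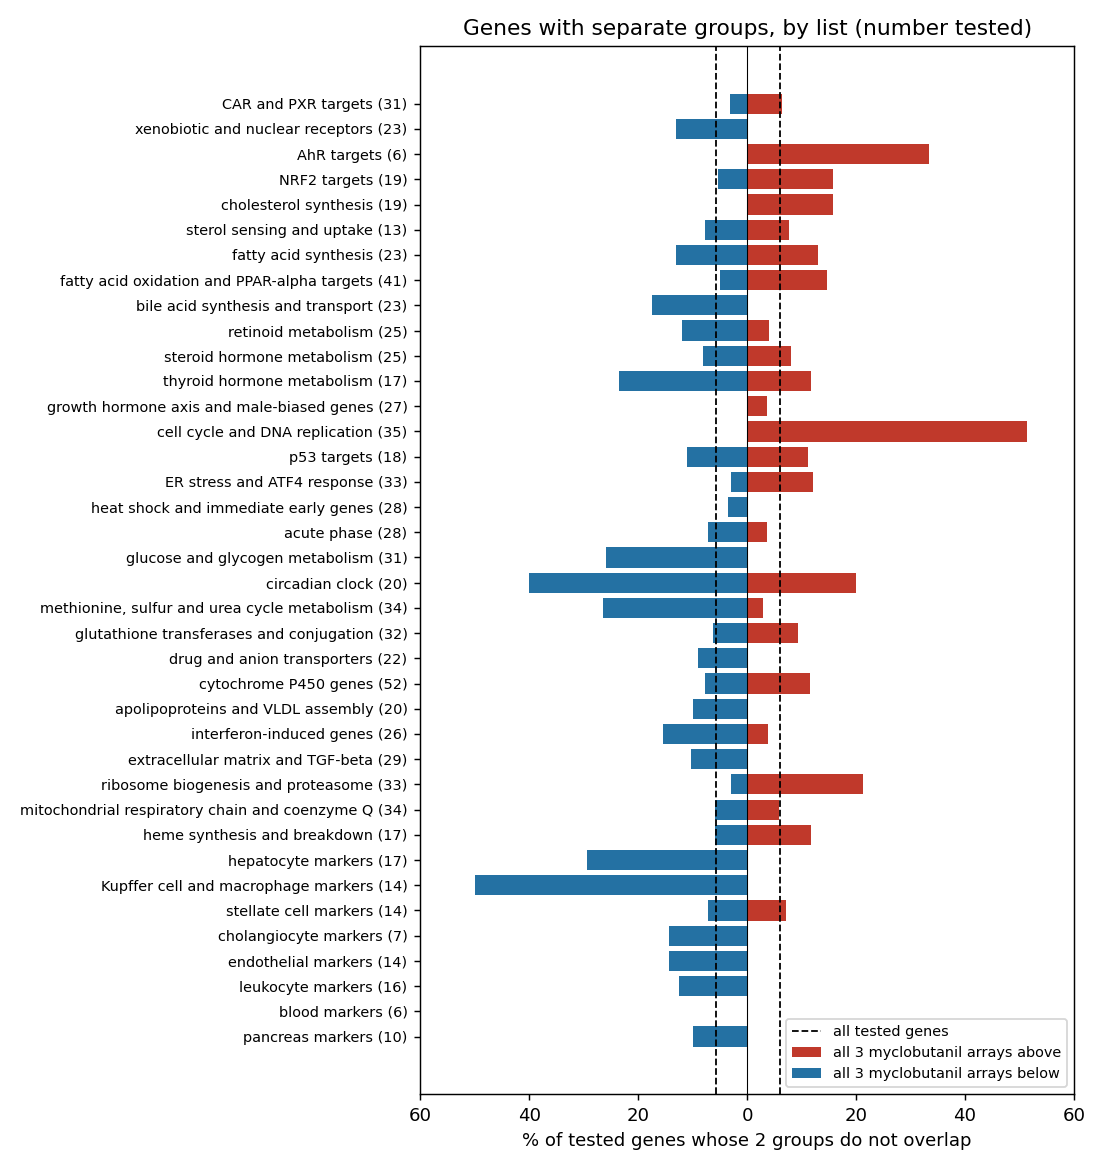
For each of 38 gene lists (listed down the page, number of tested genes in brackets), the percentage of tested genes whose 3 myclobutanil arrays all lie above (red, to the right) or all below (blue, to the left) the 3 triadimefon arrays. Dashed lines give the same share over all 11842 genes, 6.12% above and 5.69% below. Cell cycle genes reach furthest to the right (18 of 35), Kupffer cell and macrophage markers (7 of 14) and clock genes (8 of 20) furthest to the left.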

How the data were processed

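Liver RNA of 12 rats, 3 in each of 4 groups, was measured on Affymetrix rat expression arrays. Each probe set has a log-like score deposited by the authors. How it was summarized and normalized, and on which log base, is not given in the sources used here. The medians of the arrays spanned 0.138, more than the SD within groups (median 0.0736), and quantile normalization was applied. Of 31099 probe sets, 57 controls and the 30% with the lowest mean (9313) were left out. Symbols came from the platform annotation, updated with RefSeq for GRCr8: 20826 probe sets had 1 gene, 436 several and 9780 none. A gene was represented by its brightest probe set.

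Limma (version 3.58.1, R 4.3.3) fitted 4 group means with 8 residual degrees of freedom and an intensity trend. Tests were two-sided, with Benjamini-Hochberg adjustment over 21729 probe sets, and the number of arrays limits the precision. The code was tested on simulated data. Figures used matplotlib 3.10.9. The genes named were up to 15 each way (called ones first, then the smallest p), up to 4 called or 2 other members of each list, and 21 fixed genes. List members outside this rule, and genes given for their call without 1 array, were picked with their values in view. The groups, the 38 lists and the fixed genes were chosen with earlier results of these data known, and no list was tested. Alternatives changed the normalization, filter, variance model, arrays, replicate block and threshold. No 2 arrays held identical values.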

Additional observations from a re-analysis of the deposited data

How the results depend on the processing

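The count of 6 calls between the compounds (2 higher, 4 lower) moved with most settings. It was 340 (185 higher, 155 lower) with array weights, 18 (8 and 10) at an adjusted p under 0.1, 9 (5 and 4) with the deposited values, 9 (2 and 7) with median centring, 5 (0 and 5) with the 50% filter, 1 (1 and 0) with no filter, and 0 (0 and 0) with no intensity trend, with no moderation, without propiconazole or on the 6 arrays alone, all by limma, which in the fit of all arrays gave 1653 at an unadjusted p under 0.05. Array weights gave myclobutanil replicates 1, 2 and 3 weights of 0.0958, 4.62 and 0.534. The weighted myclobutanil mean thus rested mostly on replicate 2. With 1 array left out the count ran from 0 to 33 (0 to 18 higher, 0 to 15 lower). Against control, the 395 calls with myclobutanil became 1668 with array weights, 1199 at an adjusted p under 0.1, 208 with no moderation, 132 without propiconazole and 28 to 924 with 1 array left out. The 167 with triadimefon became 1028, 375 and 62 under the first 3 of these, and 6 to 611 with 1 array left out. With the replicate block the counts were 0 (0 higher, 0 lower) between the compounds, 180 with myclobutanil and 87 with triadimefon against control. Same-numbered myclobutanil and triadimefon arrays deviated together with r of -0.028, 0.010 and 0.057, and not every array correlated best with its own number. No pairing by number was thus seen, but deviations from means of 3 arrays are too few to exclude one. A shared batch was not tested. The cause of these moves was not tested, beyond the smaller numbers of arrays or probe sets that some settings leave.

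Of 999 values of named genes with 1 array left out, 925 kept their direction and side of the threshold, 39 lost and 22 gained a call, and 13 changed sign. Of 1128 under other alternatives the counts were 1025, 37, 54 and 12. Signs changed for uncalled genes only. With median centring and the deposited values, Aldh1a1 was -0.059 and -0.026, and Hmox1 -0.068 and -0.036. With array weights Hmox1 was -0.48, Ces2c 0.10 and Cyp3a23-3a1 0.020. Other probe sets gave -0.010 and -0.0083 for Dipk2a, 0.10 for Stard4, -0.053 for Anxa4 and 0.10 for Flt1. With 1 array left out, the differences ran from -0.60 to 0.0059 for Cyp2c11, -0.037 to 0.31 for Abcb1a, -0.059 to 0.15 for Aldh1a1, -0.20 to 0.039 for Cyp26a1, -0.22 to 0.39 for Hmox1, -0.17 to 0.11 for Ces2c and -0.015 to 0.013 for Cyp3a23-3a1. Of 380 list medians, 341 moved by less than 1 SD and 39 by more, and 49 changed sign. Signal over background cannot be judged, as the files give none.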
